A study of Mus musculus with 13 samples.

Results

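The genes described here are those through which a macrophage reads IgG and other immune ligands: the receptors for the constant part of IgG, Fcgr1, Fcgr2b, Fcgr3 and Fcgr4, the signalling adaptors Fcer1g and Tyrobp, the kinase Syk, and Trem2, a receptor that signals through Tyrobp. These 8 genes were chosen by name for their role, with earlier results of these data known. They were taken out of 23337 genes counted in the EKLF-/- and EKLF+/+ libraries, 35498 in the EKLF/GFP libraries and 54227 in the single-cell library. All 8 were listed in each of these tables, and all 8 passed the filter on low counts, 10 reads in at least 3 libraries, in both bulk comparisons.

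All samples were purified as F4/80+ cells of mouse fetal liver at embryonic day E13.5, and C57BL/6 is the strain that all labels name, while the methods put the EKLF-null line on a 129S4/SvJae background. F4/80 is the surface protein that the gene Adgre1 encodes and is used to sort macrophages. Bulk RNA-Seq was run on 4 groups of 3 sorted samples, out of 13 samples in the series. The EKLF-/- embryos lack EKLF (Klf1), an erythroid transcription factor, in every cell rather than in macrophages alone, and were set against EKLF+/+ embryos. The EKLF/GFP+ and EKLF/GFP- cells came from pEKLF/GFP reporter embryos, in which the EKLF promoter drives GFP and both groups carry intact EKLF, so that GFP marks cells in which that promoter is or was active. RNA of EKLF/GFP+ cells was extracted with a nanoprep kit and that of the other bulk groups with Trizol, and the methods give the nanoprep RNA a lower integrity. The kit and the group cannot be told apart. The single-cell library held wild-type cells of pooled littermate embryos, enriched for F4/80 with beads, and the study's own flow cytometry found some of them without F4/80. It was 1 library, so its values carry no replicate error. Nothing in the labels says which embryos were littermates in the bulk groups, and p-values measure the spread between these samples.

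Receptors for IgG bind antibody on a coated target and hand the signal to an ITAM, a pair of tyrosines in the cytoplasmic tail of an adaptor chain. Fcgr1, Fcgr3 and Fcgr4 use the Fcer1g chain, and Trem2 and related receptors use Tyrobp. Src family kinases phosphorylate these tyrosines, Syk docks on them through its SH2 domains and passes the signal on, and the ITIM of Fcgr2b recruits phosphatases that restrain it.

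The motifs that give the adaptors their name are shown first, because the adaptors carry the signal of most of the other members. The stretches below are the coding strand of the GRCm38 transcripts, with the codons of the tyrosines and of the leucines or isoleucine of each motif in capitals.
Fcer1g ITAM, chr1:171229889-171230072, minus strand, exons 4 to 5 of 5: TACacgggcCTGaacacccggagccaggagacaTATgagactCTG
Tyrobp ITAM, chr7:30415670-30417382, plus strand, exons 4 to 5 of 5: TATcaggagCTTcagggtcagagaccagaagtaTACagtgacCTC
Fcgr2b ITIM, chr1:170961071-170961088, minus strand, exon 8 of 8: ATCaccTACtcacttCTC
Both ITAMs were 45 bases long and were split between the last 2 exons. The Fcer1g motif took codons 65 to 79 of 86 and the Tyrobp motif codons 92 to 106 of 114, close to the end of each chain. An ITAM was found in the coding sequence of no other member. The shorter ITIM pattern was also found in letters alone in coding transcripts of Fcgr1, Fcgr4, Fcer1g and Tyrobp, and such a match does not show a working site.

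The members lay on 5 chromosomes, and 4 of them lay together. Fcgr2b (chr1:170958617-170976547, minus strand), Fcgr4 (chr1:171018920-171029761, plus strand), Fcgr3 (chr1:171051174-171064935, minus strand) and Fcer1g (chr1:171229572-171234365, minus strand) fell within 276 kb of chromosome 1 that held 11 protein-coding genes. Fcgr1 was at chr3:96282909-96293969, Tyrobp at chr7:30413760-30417585, Syk at chr13:52583173-52648792 and Trem2 at chr17:48346401-48354147 (GRCm38). Reads of Fcgr2b and Fcgr3 could in part be confused: 2.54% of the 100-base windows of Fcgr3 transcripts also occurred in Fcgr2b transcripts, and 0.753% the other way. No other pair of the 4 receptors shared such a window.

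The 250 bases before the start sites of an adaptor, a receptor and the kinase are shown because all 8 members were called lower together in EKLF/GFP+ cells (RefSeq, GRCm38.p6, in the direction of transcription). Capitals mark AGGAAG, letters found in many sites of the myeloid ETS factor PU.1, or CCNCNCCC, the motif of EKLF, on either strand.
Fcer1g promoter, chr1:171234350-171234599, minus strand: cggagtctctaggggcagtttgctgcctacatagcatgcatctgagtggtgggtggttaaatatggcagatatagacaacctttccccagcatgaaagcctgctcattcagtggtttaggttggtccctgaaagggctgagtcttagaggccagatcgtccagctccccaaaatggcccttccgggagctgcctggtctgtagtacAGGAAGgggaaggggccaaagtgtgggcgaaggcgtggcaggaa
Trem2 promoter, chr17:48346151-48346400, plus strand: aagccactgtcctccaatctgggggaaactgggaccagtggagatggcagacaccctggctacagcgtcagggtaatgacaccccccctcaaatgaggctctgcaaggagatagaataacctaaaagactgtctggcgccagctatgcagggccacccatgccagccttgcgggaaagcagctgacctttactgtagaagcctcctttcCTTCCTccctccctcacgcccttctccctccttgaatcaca
Syk promoter, chr13:52583187-52583436, plus strand: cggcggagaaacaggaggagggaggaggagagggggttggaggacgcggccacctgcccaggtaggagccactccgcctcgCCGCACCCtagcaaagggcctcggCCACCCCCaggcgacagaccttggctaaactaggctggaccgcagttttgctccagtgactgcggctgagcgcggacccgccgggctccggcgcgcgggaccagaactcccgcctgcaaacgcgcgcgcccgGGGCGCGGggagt
The table of promoters held an entry for 7 of the 8 members. AGGAAG was present in a promoter of 5 of these 7, namely Fcer1g, Fcgr1, Fcgr3, Fcgr4 and Trem2, and in 29.5% of all 32851 promoters. It lay 44 bases before the start site of Fcer1g and 41 before that of Trem2. The longer GAGGAAGT was present for Fcgr4 and in 2.44% of all promoters. CCNCNCCC was present for Syk alone among these 7, and in 45.9% of all promoters. A match in letters is thus common and does not show binding, which was not measured.

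Sequencing depth was 10695514 to 15362161 reads on genes in the EKLF+/+ and EKLF-/- libraries and 22723197 to 28736342 in the EKLF/GFP libraries. The targeted gene followed its label: Klf1 fell by 2.53 on the log2 scale in EKLF-/- libraries (SE 0.12, adjusted p = 7.18e-06, edgeR quasi-likelihood test with Benjamini-Hochberg adjustment), from 348 ± 37.8 to 60.0 ± 3.73 normalised CPM (read counts scaled by library size with TMM; SD, n = 3). In EKLF/GFP+ cells Klf1 was at 87.3 to 101 CPM, against 28.6 to 45.7 in EKLF/GFP- cells. Adgre1, the gene of the sorting marker, was found in every bulk library and did not pass the test in either comparison (EKLF-/- log2 fold change 0.12 with adjusted p = 0.602, EKLF/GFP+ 0.21 with adjusted p = 0.738, edgeR). EKLF-/- replicate 2 was the highest EKLF-/- library for 7 of the 8 members, all but Trem2, and EKLF/GFP+ replicate 3 the highest EKLF/GFP+ library for 8 of 8. Adgre1 was at 36.6, 82.5 and 104 CPM in the EKLF/GFP+ replicates, lowest in replicate 1, and at 60.3, 48.8 and 84.5 CPM in the EKLF/GFP- replicates.

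The comparison of EKLF-/- with EKLF+/+ asks what loss of EKLF changed in sorted fetal liver cells. In EKLF-/- libraries both adaptors, the activating receptor Fcgr3 and Trem2 were higher, by 1.68-fold to 2.71-fold, and Syk was at 137 ± 4.38 CPM against 135 ± 29.4 (SD, n = 3). In bulk RNA, fewer cells of a type and less RNA per cell cannot be told apart. At an adjusted p under 0.05, 4 of the 8 members were called higher and none lower, where 20.2% of the 12753 genes tested were called, 9.63% higher and 10.5% lower. The 3 libraries of one group lay wholly above those of the other for 6 of the 8 members, and for 46.3% of all genes.

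Fcgr3, a low-affinity activating receptor that pairs with Fcer1g, had 51.0, 67.3 and 55.1 CPM in the EKLF+/+ replicates and 91.3, 149 and 93.1 CPM in the EKLF-/- replicates. Each EKLF-/- library was above each EKLF+/+ library. The rise was 0.94 on the log2 scale (SE 0.20, 1.92-fold, adjusted p = 0.0173, edgeR quasi-likelihood test). Fcgr1, the high-affinity IgG receptor, had 11.0, 13.7 and 16.8 CPM against 20.4, 40.2 and 18.5. The groups did not overlap, but EKLF-/- replicate 2 had about as many CPM as the other two libraries of its group together. The log2 fold change of Fcgr1 was 0.93 (SE 0.30) with an adjusted p of 0.0604 by edgeR, so this receptor was not called. Fcgr4, another activating receptor, had 2.86, 4.20 and 6.39 CPM in EKLF+/+ and 4.24, 8.94 and 5.24 CPM in EKLF-/- libraries. Its groups overlapped and its log2 fold change was 0.45 (SE 0.36, adjusted p = 0.374, edgeR). Fcgr2b, the inhibitory receptor, had 17.9, 24.6 and 15.4 CPM against 25.3, 34.1 and 26.8. The lowest EKLF-/- library was just above the highest EKLF+/+ library, and the log2 fold change of 0.57 (SE 0.20) had an adjusted p of 0.0719 by edgeR.

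Both ITAM adaptors were higher without EKLF. Fcer1g, whose ITAM is printed above, had 36.9, 46.1 and 40.7 CPM in EKLF+/+ libraries and 53.5, 93.0 and 61.9 in EKLF-/- libraries, a rise of 0.75 on the log2 scale (SE 0.20, adjusted p = 0.0354, edgeR). Tyrobp, also known as DAP12, had 59.7, 76.1 and 68.5 CPM against 90.0, 182 and 111, a rise of 0.90 (SE 0.24, adjusted p = 0.0339, edgeR). In both genes the groups did not overlap and the EKLF-/- libraries spread more widely than the EKLF+/+ libraries. Trem2, a receptor for lipids and apolipoproteins on macrophages, had the fewest reads of the 8, with 26 to 98 per library. It had 2.40, 2.46 and 2.16 CPM in EKLF+/+ and 6.81, 5.96 and 6.32 CPM in EKLF-/- libraries. Both groups were tight, and they were the farthest apart of all members on the log2 scale (log2 fold change 1.44, SE 0.19, 2.71-fold, adjusted p = 0.00213, edgeR). Syk had 128, 168 and 110.3 CPM in EKLF+/+ libraries and 139.0, 139.1 and 131 in EKLF-/- libraries. Its EKLF-/- values lay within the EKLF+/+ range, and the log2 fold change was 0.01 (SE 0.15, adjusted p = 0.953, edgeR).

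**Figure D1:**
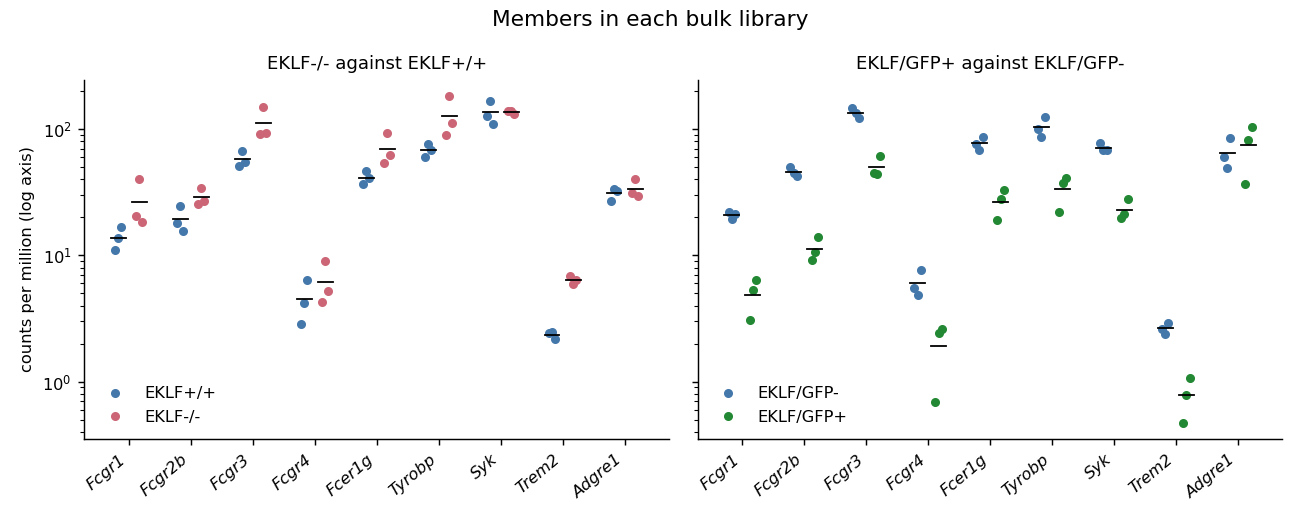
Normalised CPM of each of the 8 genes and of Adgre1 in each bulk library, on a log axis, with 1 point per library and a bar at the group mean. Trem2 stays below 2.5 CPM in all EKLF+/+ libraries and above 5.9 in all EKLF-/- libraries, while the EKLF/GFP+ points lie below the EKLF/GFP- points for all 8 genes.

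Calls in this comparison moved with single libraries. Without EKLF+/+ replicate 1 or 3 Trem2 alone stayed called, without EKLF+/+ replicate 2 or EKLF-/- replicate 3 Fcgr3 and Trem2 were called, and without EKLF-/- replicate 1 the called members were 6, with Fcgr1 and Fcgr2b added. DESeq2 in place of edgeR called the same 6. Without EKLF-/- replicate 2, the highest library for most members, the 4 calls were the same but the log2 fold changes were smaller, at 0.65 for Fcgr3, 0.47 for Fcer1g and 0.54 for Tyrobp, with 0.48 for Fcgr1 and 0.06 for Fcgr4, which were not called. Trem2 was at 1.47.

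Marker sums of monocytes, neutrophils and their progenitors were higher in the same libraries. The summed level of the 8 monocyte markers was 498 to 622 CPM in EKLF+/+ and 646 to 1093 CPM in EKLF-/- libraries, that of the 8 neutrophil markers 1664 to 2640 against 2860 to 5156, and that of the 5 granulocyte-monocyte progenitor markers 3596 to 4938 against 5231 to 10696. Of the markers tested, 1 of 8, 3 of 7 and 4 of 5 were called higher, beside 9.63% of all genes tested, and nothing is read from the single monocyte call. Of 5 mast cell or basophil markers tested 2 were called higher (median log2 fold change 0.54), with sums of 182 to 228 against 217 to 275 CPM that overlapped. No monocyte, neutrophil or progenitor marker was below 1 CPM in every library. The erythroid markers went the other way, from 8831 to 10302 CPM to 3343 to 4827, with 6 of 9 called lower. The dendritic cell sum was also lower, 27.4 to 37.3 CPM against 56.9 to 61.2 in EKLF+/+, with 2 of 4 tested markers called lower, and 4 of 6 endothelial and 4 of 6 mesenchymal markers were called lower. Cd209a and Xcr1 of the dendritic cell list, whose most abundant gene was Flt3, were below 1 CPM in every library. So were Hba-a1 of the erythroid list and Fcer1a of the mast cell or basophil list. Of all genes tested 10.5% were called lower. The part of all these cell types in the members' values was not tested.

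No macrophage marker was called higher in EKLF-/- libraries. The sum of the 14 markers was 344 to 416 CPM in EKLF+/+ and 342 to 526 CPM in EKLF-/- libraries, with 3 of 14 called lower. Set against this sum, Trem2 was 0.519% to 0.698% of it in EKLF+/+ and 1.13% to 1.87% in EKLF-/- libraries, a difference of 1.38 on the log2 scale. Fcgr3 went from 13.3% to 16.6% of the sum to 25.1% to 28.2% (log2 difference 0.85). Tyrobp went from 16.5% to 18.8% to 24.8% to 34.6% (log2 difference 0.79). For these 3 genes, and for Fcgr1 (0.81), Fcer1g (0.66) and Fcgr2b (0.53), the groups did not overlap, and the exact two-sided permutation test gave p = 0.1, the smallest that 3 against 3 libraries allow. Fcgr4 (0.40, exact p = 0.3) and Syk (-0.02, exact p = 0.9) overlapped. The share of all genes without overlap was not counted for this ratio, and without the denominator it was 46.3%. Csf1r was the most abundant gene of the sum. With Adgre1 alone as the denominator the log2 differences were within 0.48 to 1.33 for the 6 genes without overlap.

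The comparison of EKLF/GFP+ with EKLF/GFP- cells asks how cells that used the EKLF promoter differ from the other F4/80+ cells of the same kind of embryo. Here all 8 members were lower in EKLF/GFP+ cells, by 2.69-fold to 4.27-fold, Syk included. All 8 were called, where 44.8% of the 14259 genes tested were called, 25.8% lower and 19.0% higher, and in all 8 the groups did not overlap, as in 55.7% of all genes.

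Fcgr1 fell from 21.9, 19.4 and 21.2 CPM in the EKLF/GFP- replicates to 3.05, 5.27 and 6.36 CPM in the EKLF/GFP+ replicates (log2 fold change -2.09, SE 0.24, adjusted p = 0.000197, edgeR). Fcgr2b went from 49.6, 45.1 and 42.7 CPM to 9.10, 10.7 and 13.8 CPM (log2 fold change -2.03, SE 0.15, adjusted p = 1.69e-05, edgeR). In both receptors the groups were far apart compared with the spread within each of them. The order of the falls of these genes was not firm: Fcgr1 changed less than Fcgr2b with average transcript length as an offset (-1.89 against -2.11) and without EKLF/GFP+ replicate 1 (-1.81 against -1.87). Fcgr3 fell from 147, 134 and 123 CPM to 45.0, 44.2 and 61.1 (log2 fold change -1.43, SE 0.14, adjusted p = 6.59e-05, edgeR). Fcgr4 had 5.53, 4.82 and 7.67 CPM against 0.689, 2.45 and 2.58. Its EKLF/GFP+ values spread most of all members relative to their mean, with 19 reads in the lowest library, and its call was the least firm (log2 fold change -1.66, SE 0.44, adjusted p = 0.0183, edgeR). It was lost without a filter on low counts (adjusted p = 0.0581, edgeR) and without EKLF/GFP- replicate 3 (adjusted p = 0.0580, edgeR).

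The adaptors, the kinase and Trem2 fell by like amounts. Fcer1g had 75.8, 67.9 and 86.7 CPM in EKLF/GFP- and 18.9, 27.9 and 32.8 CPM in EKLF/GFP+ libraries (log2 fold change -1.53, SE 0.20, adjusted p = 0.000547, edgeR). Tyrobp had 99.5, 86.8 and 124 CPM against 21.9, 37.4 and 40.6 (log2 fold change -1.64, SE 0.25, adjusted p = 0.00203, edgeR). In both adaptors EKLF/GFP+ replicate 1 was the lowest library. Syk had 76.8, 67.8 and 68.4 CPM against 19.9, 21.2 and 27.9 (log2 fold change -1.63, SE 0.13, adjusted p = 2.60e-05, edgeR). Trem2, with 13 to 73 reads per library, had 2.62, 2.39 and 2.88 CPM against 0.471, 0.788 and 1.07 (log2 fold change -1.76, SE 0.30, adjusted p = 0.00154, edgeR). Both genes were tight in the EKLF/GFP- group and lowest in EKLF/GFP+ replicate 1.

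**Figure D2:**
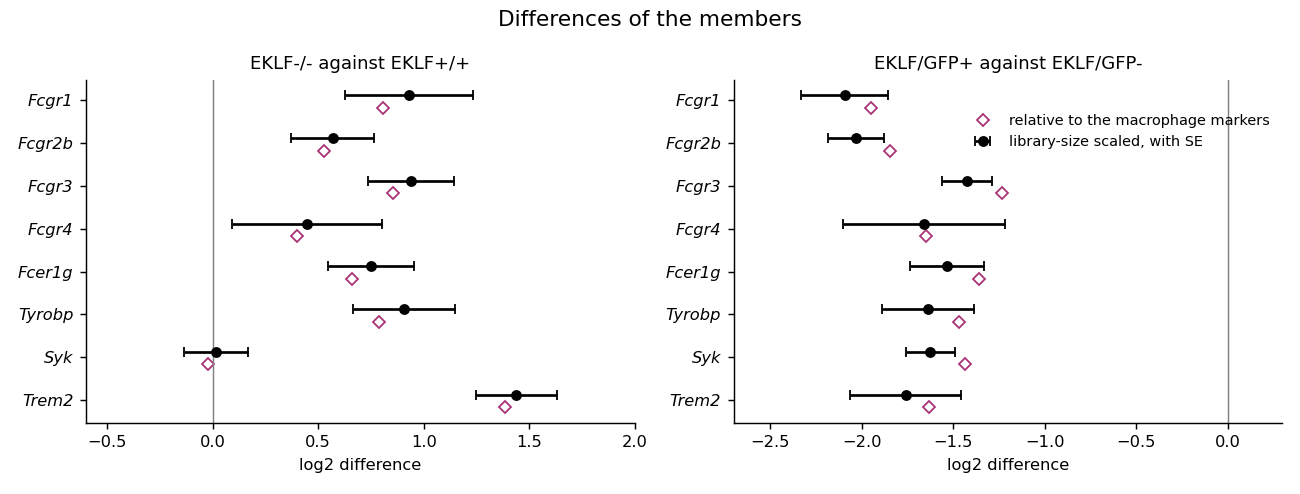
Log2 difference of each of the 8 genes in both bulk comparisons, with filled points and standard error bars for the edgeR fit and open diamonds for the difference relative to the summed macrophage markers. In EKLF-/- libraries the fitted values run from 0.01 for Syk to 1.44 for Trem2, and in EKLF/GFP+ libraries from -2.09 for Fcgr1 to -1.43 for Fcgr3.

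Monocyte, neutrophil and progenitor markers were lower in the same libraries as the members. The monocyte sum was 836 to 963 CPM in EKLF/GFP- and 66.2 to 101 CPM in EKLF/GFP+ libraries, with 8 of 8 markers called lower and a median log2 fold change of -3.60. The neutrophil sum was 1491 to 2125 against 118 to 308 (7 of 8 called lower, median -3.36) and the granulocyte-monocyte progenitor sum 3091 to 3351 against 379.7 to 496 (5 of 5, median -4.30). Each of these medians was further from 0 than the log2 fold change of any of the 8 members. Lower calls also held for 4 of 5 dendritic cell markers tested (median -3.07, sum 55.7 to 61.3 against 30.3 to 32.6 CPM, with 1 called higher), 4 of 4 lymphoid markers (median -3.05, sum 39.9 to 49.8 against 7.63 to 10.3 CPM) and 4 of 6 endothelial markers (median -1.27). All 11 erythroid markers and 5 of 6 megakaryocyte markers were called higher, with sums of 4146 to 5551 against 8661 to 10687 CPM and of 92.5 to 109.8 against 134 to 209 CPM. The part of these cells in the members' fall was not tested.

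The macrophage sum overlapped between the groups, at 383 to 572 CPM in EKLF/GFP- and 223 to 622 CPM in EKLF/GFP+ libraries, with 2 of 14 markers called lower, none higher and a median log2 fold change of 0.34. Relative to the macrophage sum each member was lower in every EKLF/GFP+ library than in any EKLF/GFP- library. For this ratio the share of all genes without overlap was not counted, and without the denominator it was 55.7%. Csf1r was the most abundant gene of the sum, and the sum does not measure the number of macrophages. Fcgr1 was 3.72% to 5.07% of the sum in EKLF/GFP- and 1.02% to 1.37% in EKLF/GFP+ libraries (log2 difference -1.95), and Tyrobp was 21.8% to 22.6% against 6.54% to 9.82% (-1.47). Trem2 was at 0.504% to 0.624% against 0.167% to 0.211% (-1.63). The other differences were -1.85 for Fcgr2b, -1.65 for Fcgr4, -1.44 for Syk, -1.36 for Fcer1g and -1.23 for Fcgr3. Each exact two-sided permutation p was 0.1, the smallest possible.

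The 2 comparisons share no libraries, but reads were counted by different programs, so levels are not compared across them. Side by side, Trem2 was the member with the largest log2 fold change in EKLF-/- (1.44) and was at -1.76 in EKLF/GFP+ cells. Syk was at 0.01 and -1.63. Whether a gene's change in one comparison differs from that in the other was not tested.

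Levels of different genes can be compared only per length, which the TPM values of the EKLF/GFP libraries allow. In EKLF/GFP- cells Tyrobp stood at 195 ± 34.4 TPM (SD, n = 3), Fcer1g at 108 ± 12.96, and Fcgr3 at 73.4 ± 9.01. The adaptors thus stood above every receptor, without overlap between libraries. Below them came the inhibitory receptor Fcgr2b at 28.7 ± 4.37 TPM, Syk at 13.9 ± 1.53 and Fcgr1 at 13.3 ± 2.02, then Fcgr4 at 3.53 ± 0.827 and Trem2 at 1.82 ± 0.173. Syk and Fcgr1 were the only neighbours in this order whose libraries overlapped. In EKLF/GFP+ cells the order of the means was the same, from 59.8 ± 16.8 TPM for Tyrobp to 0.470 ± 0.151 for Trem2, but more neighbours overlapped: Tyrobp with Fcer1g, Fcer1g with Fcgr3, Syk with Fcgr1 and Fcgr4 with Trem2.

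The share of the leading transcript form differed between the members. The forms of Fcer1g and Tyrobp whose ITAMs are printed above made up 97.3% and 99.1% of their gene's TPM in EKLF/GFP- and 97.4% and 98.6% in EKLF/GFP+ cells. In Fcgr1 the leading form was a short one annotated as a target of nonsense-mediated decay, which held 70.1% (61.3% to 77.0%) of its TPM in EKLF/GFP- and 75.7% (72.6% to 81.0%) in EKLF/GFP+ cells. The main coding form of Fcgr3 held 73.8% (69.3% to 79.2%) and 62.0% (55.2% to 70.3%), and a retained-intron form 11.0% (9.06% to 13.1%) and 20.4% (14.0% to 31.1%). The ranges of the coding form overlapped and those of the retained-intron form did not, in libraries that also differ by RNA kit. The main forms of Fcgr2b held 68.9% and 69.8% and those of Syk 64.5% and 66.5% of their genes' TPM, which was within the spread of the libraries. A pair of minor coding forms of Fcgr2b did not overlap between the groups: Fcgr2b-204 held 7.88% to 11.6% in EKLF/GFP- and 1.99% to 5.30% in EKLF/GFP+ libraries, and Fcgr2b-201, from which the ITIM above was read, 0.407% to 0.877% and 2.26% to 4.19%. All coding forms of Fcgr2b carried the ITIM pattern. The forms without overlap were picked from all forms of the 8 members and were not tested, so nothing is read from them.

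The single-cell library shows in which cells of the F4/80-enriched preparation each gene was found, and not every cluster need hold F4/80+ cells. Of 3096 barcodes 3093 were kept, with a median of 18605 molecule counts (UMIs), and clustering without the pathway genes gave 14 clusters. Clusters 0 and 1, 1081 cells together, were called macrophage-like by their markers. Cluster 3 was monocyte-like (287 cells), 5 neutrophil-like (220), 11 megakaryocyte-like (91), 12 endothelial-like (84) and 13 hepatoblast-like (67), and 4 clusters were erythroid-like (640 cells). Clusters 2, 7 and 8 stayed unnamed. Cluster 2 (384 cells) was led by Fcrls, Cx3cr1 and C3ar1, cluster 7 (124 cells) by Ypel4 and Tmcc2, and cluster 8 (115 cells) by Ifitm1, Cpa3 and Hmga2. The macrophage markers summed to 92.9 and 134.5 counts per 10000 in clusters 0 and 1, 71.9 in cluster 2, 83.8 in cluster 7 and 4.64 in cluster 8. Scrublet marked no doublets, 0 of 3093, which is no working estimate, so doublets were left in.

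Both adaptors were found in nearly every myeloid cell. Tyrobp had a mean of 18.7 and 19.1 counts per 10000 in macrophage-like clusters 0 and 1, 22.6 in cluster 2, 20.8 in monocyte-like and 13.47 in neutrophil-like cells. Fcer1g had 13.3, 15.3, 20.4, 15.0 and 10.2 in the same clusters. In erythroid-like cells, used here as the comparison for background, the means were 1.37 and 1.10, though at this depth 84.4% and 81.6% of those cells still held a count. Droplet libraries hold free RNA, and for the adaptors a share of cells therefore tells little. That erythroid-like cells lack the members is an assumption that was not tested, and the study names the clusters with Klf1 otherwise, as macrophages, while the names here were rebuilt from markers. The median depth was 9643 and 21243 counts in clusters 0 and 1 and 15093.5 to 47004 in the erythroid-like clusters.

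The IgG receptors divided by cell type. Fcgr1 had a count in 75.1% of macrophage-like cells (95% exact binomial interval 72.4% to 77.7%) and in 18.0% of erythroid-like cells, and 45.7% against 3.84% after each cell was thinned to 5000 counts. Its mean was 1.15 to 1.86 per 10000 in clusters 0 to 3 and 0.08 in neutrophil-like cells, with 15.5% of neutrophil-like cells holding a count, or 3.70% after thinning, at the level of the erythroid-like cells. Fcgr3 was found in both kinds of cell, with 89.4% of macrophage-like and 89.5% of neutrophil-like cells, or 69.6% and 56.0% after thinning, against 6.08% of erythroid-like cells. Fcgr4 had a count in 52.0% (49.0% to 55.0%) of macrophage-like cells, 24.7% after thinning, and a mean of 0.46 to 0.75 in clusters 0 to 3 against 0.03 in erythroid-like cells. In neutrophil-like cells its mean was 0.21, and 7.87% (4.65% to 12.3%) held a count after thinning, against 1.12% (0.451% to 2.29%) of erythroid-like cells.

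Fcgr2b, the inhibitory receptor, had another distribution. It was found in 8 of 1081 macrophage-like cells, or 0.740% (0.320% to 1.45%), beside 1.09% of the deeper erythroid-like cells. After thinning it was 0.561% of macrophage-like cells and 0 of 625 erythroid-like cells, and a level this near that of a single count is read neither as expression nor as a difference. Neutrophil-like cells had a count in 52.7% (45.9% to 59.5%), cluster 8 in 29.6% (21.4% to 38.8%), monocyte-like cells in 15.0% (11.1% to 19.6%) and cluster 2 in 7.55% (5.12% to 10.7%). After thinning these were 16.7%, 12.4%, 4.95% and 3.42%. For the 0 of 625 in erythroid-like cells the exact interval reached 0.588%, and a limit of 3 counts of the total would give 0.48%. Both limit the share of cells with a count after thinning only, since 1.09% held a count before it. The neutrophil-like cluster held 50.3% of all Fcgr2b counts with 7.11% of the cells. For each Fcgr3 count there were 0.227 Fcgr2b counts (0.195 to 0.263) in neutrophil-like cells and 0.00166 in macrophage-like cells. Intervals cover counting error only. Over all cells there were 0.042 Fcgr2b counts for each Fcgr3 count. In the bulk EKLF/GFP- libraries Fcgr2b stood at 28.7 and Fcgr3 at 73.4 TPM. Why the methods differ was not tested, and few single-cell counts of Fcgr2b are not read as absence.

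**Figure D3:**
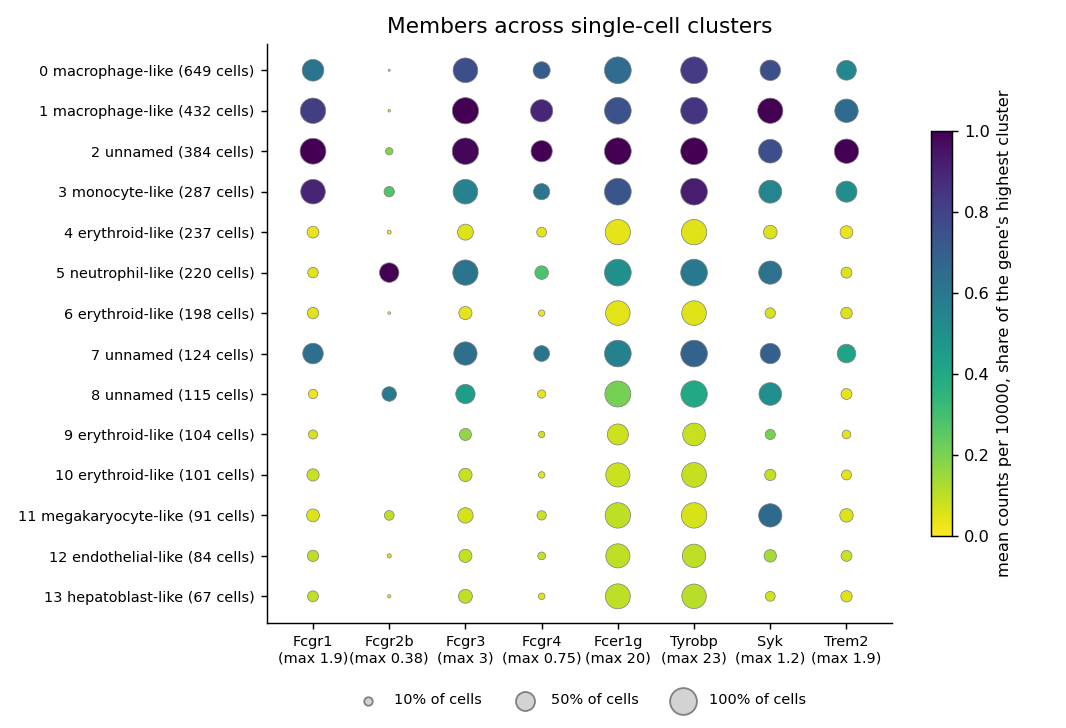
The 8 genes in each of the 14 clusters of the single-cell library, with the circle's area for the share of cells with a count and its colour for the mean counts per 10000 relative to the gene's highest cluster. Fcgr1, Trem2 and Fcgr4 are highest in cluster 2, at 1.86, 1.87 and 0.75, against 0.08, 0.10 and 0.21 in neutrophil-like cluster 5. Fcgr2b is highest in cluster 5, at 0.381, and the erythroid-like clusters are low for all 8 genes.

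Trem2 followed Fcgr1. It had a count in 63.1% (60.1% to 66.0%) of macrophage-like cells and in 82.6% (78.4% to 86.2%) of cluster 2, or 37.9% and 48.7% after thinning, against 4.80% of erythroid-like and 6.48% of neutrophil-like cells. Its mean was highest in cluster 2, at 1.87 per 10000. Syk was spread more evenly over the myeloid clusters, from 0.67 in monocyte-like to 1.24 in macrophage-like cluster 1, with 0.78 in neutrophil-like cells. Syk was also the member that stood out in megakaryocyte-like cells, where 75.8% (65.7% to 84.2%) held a count, 28.4% after thinning, against 4.64% of erythroid-like cells. That cluster held 7.39% of all Syk counts with 2.94% of the cells, at a mean of 0.816 per 10000.

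The ratio of the adaptors differed between clusters. For each Tyrobp count there were 0.711 and 0.793 Fcer1g counts in macrophage-like clusters 0 and 1, 0.717 in monocyte-like, 0.721 in neutrophil-like and 0.890 in cluster 2. The intervals of clusters 0 (0.693 to 0.730), 1 (0.776 to 0.809) and 2 (0.872 to 0.909) did not overlap. Cluster 8 had 0.506 (0.474 to 0.540). Megakaryocyte-like cells had 1.62 (1.45 to 1.82), but their Tyrobp was at the level of the erythroid-like cells, with a mean of 1.35 against 1.37 per 10000 and a count in 37.5% against 39.7% of cells after thinning. Their Fcer1g mean was 2.00 against 1.10, and 46.6% (35.9% to 57.5%) against 33.9% (30.2% to 37.8%) of cells held a count after thinning, with intervals that overlapped. The ratio of this cluster is therefore not read as a property of its cells.

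**Figure D4:**
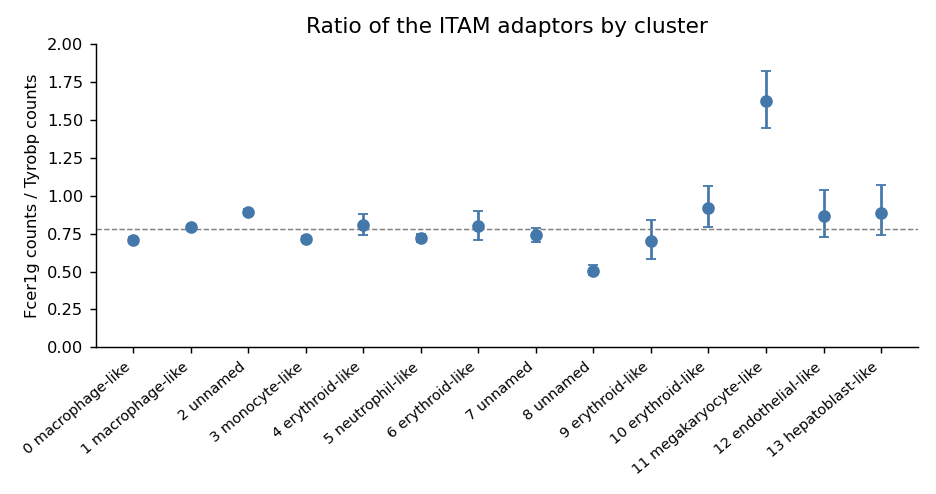
Fcer1g counts per Tyrobp count in each cluster of the single-cell library, with 95% intervals of counting error and a dashed line at the ratio over all cells. Cluster 8 stands at 0.506 and the macrophage-like clusters at 0.711 and 0.793, while the 1.62 of the megakaryocyte-like cluster rests on Tyrobp at the level of the erythroid-like cells, 1.35 against 1.37 per 10000.

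Over the 14 clusters the genes whose pattern was most like the mean of the 8 members were Cebpb (Pearson r = 0.991), Lst1 (0.990) and Gusb (0.978), among 5561 genes ranked. Among the members, Fcgr1 and Trem2 had r = 0.977, Fcer1g and Tyrobp 0.984, and Fcgr2b and Fcgr1 -0.152. The clusters share a library and differ in depth, and these values are descriptions.

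The other genes of the pathway were taken from 5 lists with 101 genes in all, members included. In EKLF-/- libraries 84 of these were tested, of which 14 were called higher and 6 lower, with a median log2 fold change of 0.27 against 0.016 over all genes. Without the 8 members the counts were 10 and 6 of 76, beside 9.63% higher and 10.5% lower of all genes tested, and nothing is read from them. On the list drawn up for receptors that pair with an adaptor or carry a hemITAM, Trem2 included, 8 of 17 were called higher and none lower. The list also holds Treml1 and Treml2 of the Trem family, for which such pairing is not established here. Treml4, a receptor of the Trem family, rose by 1.68 on the log2 scale (adjusted p = 0.00228, edgeR), Treml1, a platelet receptor of that family, by 1.38 (adjusted p = 0.00475) and Trem1, an activating receptor of neutrophils and monocytes, by 0.98 (adjusted p = 0.0499). In the single-cell library these genes were highest in different cells, Treml4 in macrophage-like cluster 1, Treml1 in megakaryocyte-like and Trem1 in neutrophil-like cells. Of 27 kinases and adaptors downstream of an ITAM, 4 were called lower, among them the lymphoid kinase Lck (-1.18), the scaffold Gab2 (-0.74) and the phospholipase Plcg1 (-0.71), and the Src family kinase Lyn was the only one higher (0.64, adjusted p = 0.00961, edgeR). Of 24 inhibitory receptors and phosphatases 2 were called higher, Clec12a (1.10) and Clec4a2 (1.01), and the ubiquitin ligase Cblb was lower (-0.57).

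In EKLF/GFP+ cells 67 of the 88 genes tested were called lower and 4 higher, with a median log2 fold change of -1.43 against -0.013 over all genes, and 59 and 4 of 80 without the members, where 25.8% and 19.0% of all genes tested were called lower and higher. By list, the genes called lower were 6 of 10 Fc receptors, of which 4 are members and the others Fcrls and Trim21, 6 of 6 adaptor chains, 13 of 22 paired receptors, 24 of 28 kinases and adaptors, and 19 of 23 inhibitory receptors and phosphatases. Clec5a (-4.87), Trem1 (-4.52) and Trem3 (-3.50), which signal through Tyrobp, fell further than any member, as did Card9 (-3.15) and the B cell receptor chain Cd79b (-2.95). Clec5a and Trem1 were highest in neutrophil-like cells of the single-cell library. Other named genes that fell were Fcrls (-1.61), Trim21 (-0.65), Vav3 (-2.58), Plcg2 (-2.58), Siglece (-2.61), Cd33 (-2.52) and Clec12a (-2.42). The genes called higher were the platelet receptors Gp6 (1.73, adjusted p = 0.000641, edgeR), Clec1b (0.86, adjusted p = 0.0216) and Treml1 (0.48, adjusted p = 0.0375), with the docking protein Dok1 (0.75, adjusted p = 0.00119). Gp6 and Treml1 were highest in the megakaryocyte-like cluster.

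**Figure D5:**
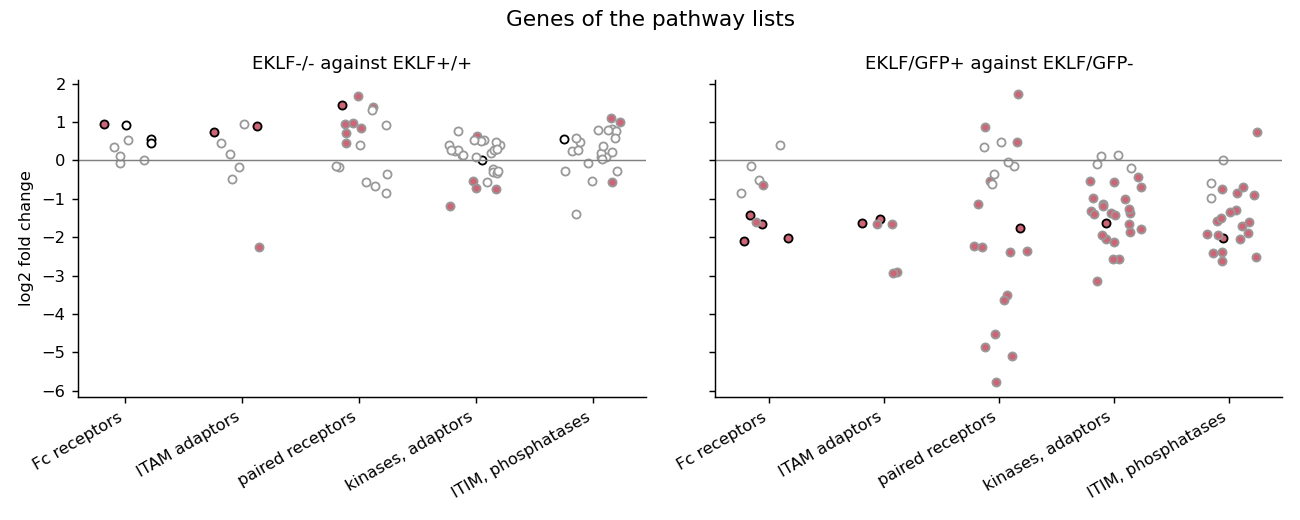
Log2 fold change of every tested gene of the 5 pathway lists in both bulk comparisons, 1 point per gene, with called genes filled and the 8 members outlined in black. In EKLF/GFP+ libraries 67 of 88 genes are called lower, and the genes called higher are Gp6, Clec1b, Treml1 and Dok1.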

How the data were processed

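Bulk RNA-Seq (100 nt single reads, poly-A libraries) and single-cell RNA-Seq (10x Chromium 3′) were run on F4/80+ cells. STAR alignment to mm10 and htseq-count gave the authors' raw counts per gene for EKLF+/+ and EKLF-/-, used here with 1884 older symbols translated. Of their reads 27.3% to 32.8% were on genes and 38.7% to 44.2% on no gene, and the latter were left out. The first EKLF+/+ file also has 5 columns that repeat the rest of that experiment, and these were ignored. For the EKLF/GFP libraries the authors ran Salmon on the GRCm38 transcriptome. Their deposited estimated counts were summed per gene and rounded, and the deposited TPM values gave levels per length. The authors' normalized counts of these libraries, a signal made with tximport and DESeq2, were used in an alternative only. A deposited table of log2 counts, which also holds the authors' fold changes, was not used. Single-cell values are the authors' estimated UMI counts from Alevin (GRCm38, GENCODE vM24), of which 4.29% were fractional. A cell was said to hold a gene at a count of at least 0.5. Transcript lengths were a deposited column, per the file headers.

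Each bulk experiment was fitted alone with edgeR 4.0.16 (TMM, quasi-likelihood test, two-sided, Benjamini-Hochberg adjustment over all genes that had 10 or more counts in 3 or more libraries, threshold 0.05), which was tested on simulated data. DESeq2 1.42.0 and limma 3.58.1 (pseudocount 1) were alternatives, with other filters and scalings, a 2-fold limit, average transcript length as an offset, a replicate block, no globin genes and each library left out. With 3 libraries a group the smallest exact p is 0.1. The study fitted each experiment with DESeq2, and edgeR was the main test here. Seurat 5.3.0 clustered cells with at least 200 genes (4000 variable genes less 39 pathway genes, 30 components, resolution 0.8), and scanpy 1.11.5 ran Scrublet. The study kept fewer cells by limits not given in the sources used here. Clusters were named from 12 marker lists, by the list whose mean log2 level, taken for each gene relative to its mean over clusters, was at least 1 above that of the next, with at least 3 markers in 20% of cells and no other list holding more of the top 10 genes. That naming rule was chosen after the clusters were seen. Intervals are 95% exact ones. R 4.3.3, Python 3.11.15, pandas 2.3.3 and scipy 1.17.1 were used.

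The 8 members and all lists were chosen with earlier results of these data known. The named genes were the members, Klf1, Adgre1, up to 3 rises and 3 falls a list and comparison with a mean of at least 50 counts, and the 3 genes most like the members across clusters.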

Additional observations from a re-analysis of the deposited data

How the results depend on the processing

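Trem2 in EKLF-/- was called under all 13 alternatives, with log2 fold changes of 1.36 to 1.47 and a highest adjusted p of 0.0169 (edgeR). Fcgr3 was called under 10 of the 13, and Fcer1g and Tyrobp under 8 each. They lost the call at a limit of a 2-fold change and when libraries were left out, with adjusted p up to 0.0766, 0.125 and 0.118 (edgeR). Fcgr1 was called under DESeq2 (adjusted p = 0.0122), and Fcgr2b under DESeq2 (adjusted p = 0.0439). The log2 fold change of Syk ranged from -0.14 to 0.18 with single libraries left out and turned to -0.03, -0.14 and -0.02 without EKLF+/+ replicate 1, EKLF+/+ replicate 3 and EKLF-/- replicate 2. In EKLF/GFP+ cells 7 members were called under all 15 alternatives and Fcgr4 under 13.

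With single libraries left out, 569 to 1909 genes were called lower and 343 to 1778 higher in EKLF-/-, and of the pathway lists 2 to 9 lower and 6 to 27 higher. In EKLF/GFP+ cells 2832 to 3475 genes were called lower, 1933 to 2808 higher, and of the pathway lists 57 to 71 lower and 2 to 4 higher. The log2 ratio of Syk to the macrophage markers in EKLF-/- ranged from -0.21 to 0.16 and was 0.03, 0.11 and 0.16 where it turned. The cause of these changes was not tested, beyond the fewer libraries in each fit. A 2-fold limit left 590 genes lower and 274 higher in EKLF-/-, 2087 and 712 in EKLF/GFP+, and of the pathway lists 2 lower and 5 higher in EKLF-/- and 1 higher in EKLF/GFP+. DESeq2 called 23 pathway genes higher in EKLF-/-, and an offset for average transcript length left 2 higher in EKLF/GFP+.

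Same-numbered libraries did not deviate together (correlations -0.005, 0.003 and 0.056, and 0.032, -0.090 and 0.027). Higher values were found between EKLF/GFP- replicate 2 and EKLF/GFP+ replicate 1 (0.166), and between EKLF/GFP- replicate 3 and EKLF/GFP+ replicate 2 (0.162). Such correlations cannot settle which libraries share embryos, so the pairing is not known. With the replicate number as a block, the fit called 1016 genes lower and 842 higher in EKLF-/-, 3486 and 2435 in EKLF/GFP+, and of the pathway lists 4 lower and 18 higher, and 69 and 3. Of the members it called 5 in EKLF-/-, with Fcgr2b added (adjusted p = 0.0414, edgeR), and all 8 in EKLF/GFP+.

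In the single-cell library, a minimum of 1000 genes, other resolutions or the pathway genes left in gave 1047 to 1134 macrophage-like cells, and no member's share among them left its 95% interval. Trem2 and Fcgr4, with under 182 reads in every bulk library, are the members whose values depth limits most.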
